A study of Rattus norvegicus with 12 samples.

Results

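The lysosomal cathepsins are a group of proteinases that break down proteins inside acid organelles and, when secreted, outside the cell. The group was set by gene symbol as Ctsb, Ctsk, Ctss, Ctsl and Ctsd. Each of the 5 genes had 1 probe on the array, out of 13336 genes that had a probe with a gene symbol. All 5 probes were among the brighter 50% of the table, to which every test was applied. They were measured in fascicles of rat tail tendon, fine collagen bundles whose tenocytes, the fibroblasts of tendon, stay in their own matrix. The 4 groups were fascicles given cyclic tensile strain in vitro for 24 h, fascicles left unstrained for 24 h, fascicles strained for 1 h and fascicles left unstrained for 1 h. Each group had 3 samples of total RNA with 1 Illumina bead array each. The labels give neither the strain, age and sex of the rats nor the size of the stretch, nor whether one animal or culture gave several samples. The p-values therefore measure only how these samples vary, and that variation may be technical.

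Cathepsins B, K, S and L are cysteine proteinases of the papain family and cathepsin D is an aspartic proteinase. All are made as inactive proenzymes, are sorted to the lysosome largely by mannose 6-phosphate tags and are activated by acid. Cathepsin K can cut the triple helix of fibrillar collagen and is best known from osteoclasts, which resorb bone. Cathepsin S stays active at neutral pH and trims the invariant chain of MHC class II in antigen-presenting cells. Cathepsins B, L and D are made by most cell types, and cathepsin B is unusual in that it can also clip dipeptides from the end of a protein.

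Values are normalized intensities on a linear scale, in which every array had a median of 57.0, and fold changes are on the log2 scale. The lowest value on any array was 33.7, so some background remains in each value, and the fold changes of dim probes are smaller than those of their transcripts. Of 11 markers of tendon cells, 8 were on the array and all 8 were bright enough to test. The probe of Dcn (decorin, a small proteoglycan of tendon) averaged 7596 ± 739 in strained and 9131 ± 525 in unstrained fascicles at 24 h (SD, n = 3 each). Of the 8, 5 had a lower and 3 a higher value under strain at 24 h. None of them, Dcn included, was called, against 2.34% of all probes. Over all probes, correlations were 0.969 to 0.985 between arrays within a group and 0.922 to 0.960 between arrays of different times. Calls required an adjusted p under 0.05 (Benjamini-Hochberg) in limma, a linear model fitted to all 11258 probes kept. In a tissue sample, fewer cells of a type and less RNA per cell cannot be told apart.

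Ctsk and Ctss were lower at 24 h than at 1 h, and Ctsl and Ctsd were not. The stretches before the annotated starts of these 4 genes are shown, and no such stretch was available for Ctsb. They are from RefSeq on build GRCr8, read 5′ to 3′ on the gene's strand, and end at the base before the outermost annotated start. Capitals mark matches on either strand to any of 5 motifs, which were the E box CACGTG, the GC box GGGCGG, the TATA motif TATAAA, the AP-1 motif TGANTCA and an interferon response motif, which is GAAA and GAAA with any 2 bases between.
Ctsk, chr2:185747298-185747547, + strand: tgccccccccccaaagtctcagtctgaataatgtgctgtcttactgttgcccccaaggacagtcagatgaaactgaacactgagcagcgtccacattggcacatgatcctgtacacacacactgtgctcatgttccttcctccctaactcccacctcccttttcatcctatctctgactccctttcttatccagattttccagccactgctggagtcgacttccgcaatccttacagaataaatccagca
Ctss, chr2:185775146-185775315, + strand: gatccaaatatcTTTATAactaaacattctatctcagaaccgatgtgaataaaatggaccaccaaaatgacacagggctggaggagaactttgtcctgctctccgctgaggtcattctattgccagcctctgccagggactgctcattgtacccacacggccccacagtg
Ctsl, chr17:769854-770103, + strand: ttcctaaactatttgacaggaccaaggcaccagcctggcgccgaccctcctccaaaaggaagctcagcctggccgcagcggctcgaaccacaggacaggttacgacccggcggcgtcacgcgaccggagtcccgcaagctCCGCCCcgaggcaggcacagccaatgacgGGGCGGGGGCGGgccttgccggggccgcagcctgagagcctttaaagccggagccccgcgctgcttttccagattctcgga
Ctsd, chr1:206968822-206969071, - strand: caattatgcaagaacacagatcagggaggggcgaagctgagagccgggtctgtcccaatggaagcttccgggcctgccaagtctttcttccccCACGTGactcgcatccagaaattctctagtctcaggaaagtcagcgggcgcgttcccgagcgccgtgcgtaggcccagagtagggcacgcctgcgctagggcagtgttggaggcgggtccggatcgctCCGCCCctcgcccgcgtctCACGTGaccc

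Distances are counted from the transcript start of the RefSeq promoter table, which for Ctss lies 80 bases downstream of the outermost start at which its printed run ends, and for the others is the same base. Over the 250 bases before that transcript start, G and C made up 49.6% of the letters for Ctsk and 46.4% for Ctss, against 66.8% for Ctsl and 63.2% for Ctsd. The median over the 33469 rat promoters of the same length was 51.2%. Ctsd had 2 E boxes, whose first bases lie 157 and 10 bases before the start, and 5.59% of all promoters hold at least 1. The E box is the core of the motif through which TFEB, a regulator of lysosomal genes, binds DNA. Ctsl had 3 GC boxes, the last 2 side by side, and Ctsd had 1, and 30.5% of all promoters hold one. Ctss had 1 TATA motif, 238 bases before its transcript start and held by 12.9% of promoters. It also had 1 interferon response motif 36 bases before that start, which lies between the 2 starts and so inside the annotated gene, and 3.41% of promoters hold that one. Ctsk held none of the 5 motifs in this window, and the AP-1 motif, present in 6.34% of promoters, was in none of the 4. Ctsk and Ctss lie close together on chromosome 2 and on the same strand.

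After 24 h of strain 2 of the 5 cathepsins, Ctsb and Ctsd, passed the test. Both were lower under strain, against 2.34% of all probes called in that comparison and 1.37% called lower. Leaving out 1 array in turn gave 0 to 3 cathepsins called, with none called without strained replicate 3 at 24 h, and 69 to 307 probes called in place of 263. Ctsb had 2.003-fold and Ctsd 1.70-fold less signal in strained fascicles. Ctss stood 2.06-fold lower and missed the threshold narrowly, and Ctsl and Ctsk did not pass. The strained and unstrained arrays did not overlap for Ctsb, Ctss, Ctsl and Ctsd, all lower under strain, as for 9.34% of all probes.

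**Figure D1:**
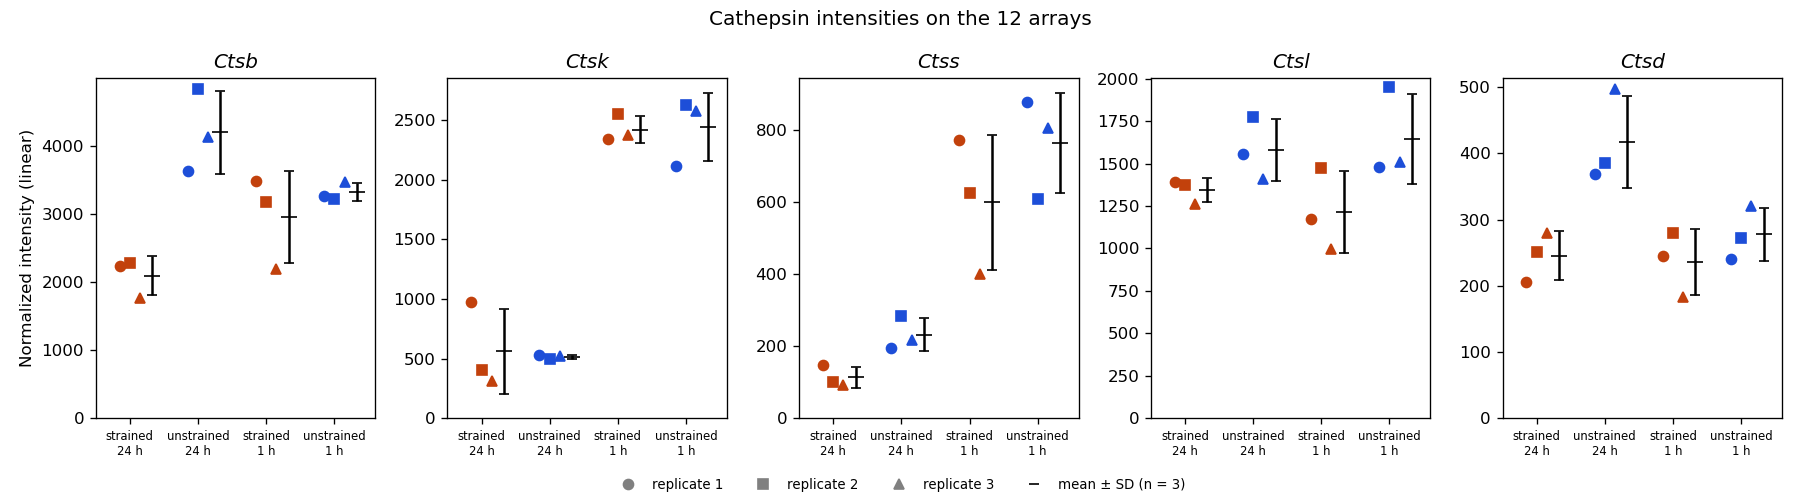
Normalized intensity (linear scale, y axis) of the 5 cathepsin probes on each of the 12 arrays, by group (x axis); symbols give the replicate number and black bars the mean and SD of 3 arrays. Ctsb lies between 1764 and 2283 in strained and between 3624 and 4838 in unstrained fascicles at 24 h, and Ctsk and Ctss are far lower at 24 h than at 1 h.

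Ctsb, the gene of the cysteine proteinase cathepsin B, had intensities of 2240.3, 2283 and 1764 in strained fascicles at 24 h, against 3624, 4838 and 4133 in unstrained fascicles. Every strained array lay below every unstrained array, and the highest strained value was well below the lowest unstrained one. The means were 2096 ± 288 and 4198 ± 609 (SD, n = 3 each), and the log2 fold change was -1.002 ± 0.17 (SE, limma adjusted p = 0.0112, 95% interval -1.37 to -0.63). Without strained replicate 3 at 24 h the value was -0.88 and the adjusted p 0.0505. At 1 h the intensities were 3487, 3175 and 2196 in strained and 3265, 3220.1 and 3466 in unstrained fascicles. There the groups overlapped, with strained replicate 3 alone far below the rest, and the log2 fold change was -0.19 ± 0.17 (adjusted p = 0.991).

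The 4 groups of Ctsb ran, from high to low, unstrained 24 h, unstrained 1 h, strained 1 h and strained 24 h. From 1 h to 24 h the unstrained level differed by 0.33 ± 0.17 (adjusted p = 0.225) and the strained level by -0.48 ± 0.17 (adjusted p = 0.0659). Neither passed the adjusted threshold, although the unstrained arrays of the 2 times did not overlap and the 95% interval of the strained change, -0.84 to -0.11, lay below 0. The groups at 24 h, the ends of that order, differed past the threshold. The test of the difference between the strain effects at 24 h and 1 h gave -0.81 ± 0.24 (adjusted p = 0.296, 95% interval -1.33 to -0.29). In that test limma called none of the 5 cathepsins, against 0.0799% of all probes, and Ctsb was the only 1 of them with an unadjusted p under 0.05.

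Ctsd, the gene of the aspartic proteinase cathepsin D, had intensities of 206, 251 and 279.7 in strained fascicles at 24 h, against 369, 386 and 497 in unstrained ones. All strained arrays lay below all unstrained arrays. The means were 246 ± 37.2 and 417 ± 69.9 (SD, n = 3 each), and the fitted change was -0.76 ± 0.18 on the log2 scale (limma adjusted p = 0.0482, 95% interval -1.15 to -0.37). That call lies at the threshold. It was lost without any single array of the 24 h groups, at adjusted p from 0.0728 to 0.175, and without strained replicate 1, unstrained replicate 2 or unstrained replicate 3 at 1 h, at 0.0605, 0.0705 and 0.0533.

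In unstrained fascicles Ctsd was higher at 24 h than at 1 h, where its values were 241, 272 and 320.04. The log2 fold change over time was 0.58 ± 0.18 (adjusted p = 0.0416), with no overlap between the times. In strained fascicles the values at 1 h were 246, 280.05 and 183, and the change over time was 0.07 ± 0.18 (adjusted p = 0.849). The unstrained group at 24 h thus stood above the other 3 groups, which overlapped each other. Both called comparisons of Ctsd share those 3 arrays. The rise in unstrained fascicles lost its call without unstrained replicate 1, 2 or 3 or strained replicate 2 at 24 h, and without unstrained replicate 1 or 2 or strained replicate 1 at 1 h, at adjusted p from 0.0504 to 0.155. The strain effects at the 2 times differed by -0.52 ± 0.25 (adjusted p = 0.644).

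Ctss, the gene of cathepsin S, was the dimmest of its own 4 groups in strained fascicles at 24 h, with 147, 101 and 91.8, against 195, 283 and 217 in unstrained ones. The groups did not overlap. The means were 113 ± 29.6 and 232 ± 45.7 (SD, n = 3 each), and the log2 fold change was -1.05 ± 0.25 (95% interval -1.59 to -0.50), with a limma adjusted p of 0.0506. It did not pass. Its adjusted p ranged from 0.0118 to 0.207 over the 21 alternative settings, and it passed in 10 of them, among them the fit without strained replicate 1 at 24 h (0.0351).

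Ctsl, the gene of the endopeptidase cathepsin L, had 1391, 1376 and 1262 in strained fascicles at 24 h, against 1553, 1775 and 1411 in unstrained ones. The groups came within a small gap of each other without overlap. The log2 fold change was -0.23 ± 0.15 (adjusted p = 0.633, 95% interval -0.56 to 0.10). Ctsk, the gene of the collagen-cutting cathepsin K, had 970.5, 403 and 309.9 in strained fascicles at 24 h, against 531, 499 and 519.7 in unstrained ones. Strained replicate 1 was above and the other two strained arrays were below all 3 unstrained arrays, whose spread was small. The log2 fold change was -0.06 ± 0.30 (adjusted p = 0.978), and the 95% interval of -0.72 to 0.60 leaves room for a change of either sign.

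After 1 h of strain limma called none of the 5 cathepsins and 0 of 11258 probes (0%), with 552 probes at an unadjusted p under 0.05. With same-numbered arrays of each time paired it called 23 probes and none of the 5. Ctsl had the smallest p of the 5 and was the single one with an unadjusted p under 0.05. Its intensities were 1172, 1473 and 996 in strained fascicles, against 1478, 1953 and 1507 in unstrained ones. The groups did not overlap, as for 3.9% of all probes on this side, and the strained array was lower in all 3 pairs of the same number, by 0.33, 0.41 and 0.60 on the log2 scale. The log2 fold change was -0.45 ± 0.15 (adjusted p = 0.964, and 0.137 with the pairing). The strain effects of Ctsl at 24 h and 1 h differed by 0.22 ± 0.21 (adjusted p = 0.866).

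The remaining cathepsins overlapped between strained and unstrained fascicles at 1 h. Ctss had 773, 625 and 401 in strained and 877, 608 and 805 in unstrained fascicles, a log2 fold change of -0.38 ± 0.25 (adjusted p = 0.981). Ctsd stood at -0.25 ± 0.18 and Ctsk at -0.01 ± 0.30. Strained replicate 3 was the lowest of the 6 arrays at 1 h for Ctsb, Ctss, Ctsl and Ctsd, and without it the 1 h values of Ctsb and Ctss were 0.0053 and -0.12. Ctsk did not share this, with 2373 on that array beside 2338 and 2548 on the other two strained arrays.

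**Figure D2:**
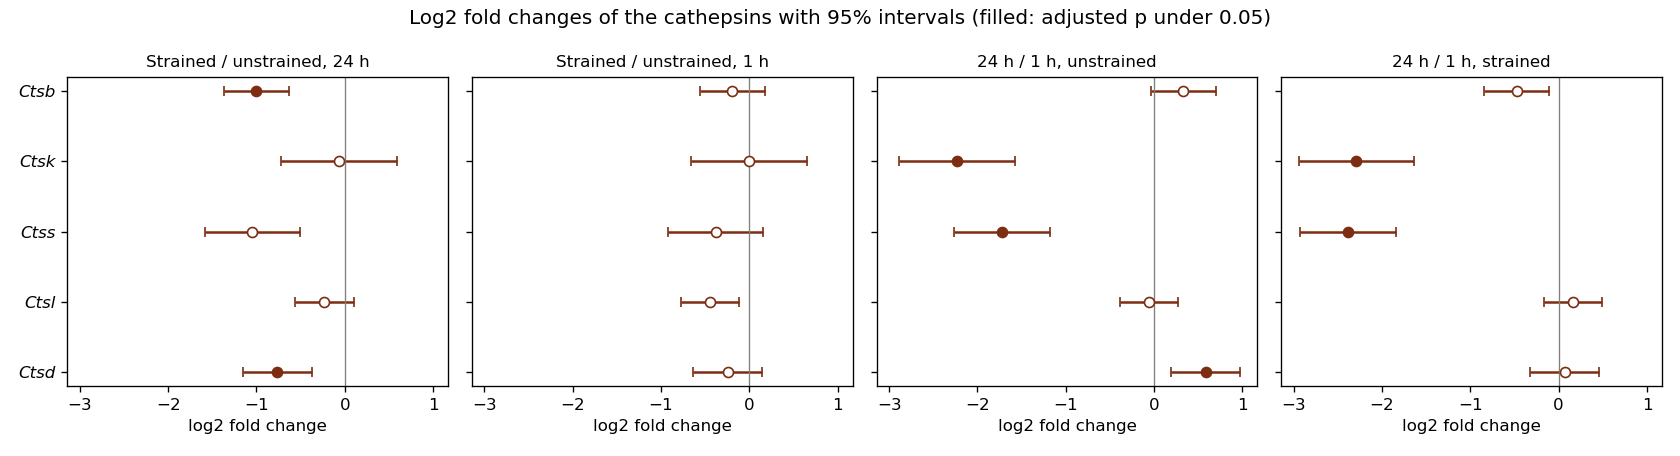
Log2 fold changes (x axis) of the 5 cathepsins (rows) in 4 comparisons, with 95% intervals from the limma fit; filled points have an adjusted p under 0.05. Ctsb and Ctsd are filled for strain at 24 h, no gene is filled for strain at 1 h, and Ctsk and Ctss are filled, between -1.72 and -2.38, for 24 h against 1 h in both unstrained and strained fascicles.

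Between 1 h and 24 h, Ctsk and Ctss fell steeply with and without strain, while Ctsl did not pass in either. In unstrained fascicles 3 of the 5 passed, 2 lower and Ctsd higher, against 17.2% of all probes called, 7.42% lower and 9.83% higher. In strained fascicles 2 of the 5 passed, both lower, against 20.7% of all probes called and 8.52% called lower. Since so many probes changed over time, these counts alone say little about cathepsins.

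In unstrained fascicles Ctsk fell to 531, 499 and 519.7 at 24 h, against 2118, 2629 and 2578 at 1 h. Its log2 fold change over time was -2.24 ± 0.30 (limma adjusted p = 5.02e-04), 4.71-fold lower. In strained fascicles it stood at 970.5, 403 and 309.9 at 24 h, against 2338, 2548 and 2373 at 1 h, a log2 fold change of -2.29 ± 0.30 (adjusted p = 3.30e-04). The times were far apart in both conditions, and the levels at a given time overlapped between strained and unstrained fascicles.

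Ctss changed over time by -1.72 ± 0.25 on the log2 scale in unstrained fascicles (limma adjusted p = 7.11e-04), 3.30-fold lower, and by -2.38 ± 0.25 in strained ones (adjusted p = 7.68e-05), 5.22-fold lower. No array at 24 h reached the lowest array at 1 h in either condition. The difference between these changes is the difference between the strain effects, which was -0.66 ± 0.35 (adjusted p = 0.682), so the steeper fall under strain was not shown. The order of the 4 groups was unstrained 1 h, strained 1 h, unstrained 24 h and strained 24 h, of which the 1 h groups overlapped. Ctsl ran, from high to low, unstrained 1 h, unstrained 24 h, strained 24 h and strained 1 h. Its changes over time were -0.05 ± 0.15 in unstrained fascicles (adjusted p = 0.871) and 0.16 ± 0.15 in strained ones (adjusted p = 0.526). Its 95% intervals were -0.38 to 0.28 and -0.17 to 0.49, so both lie above those of Ctsk, -2.89 to -1.58 and -2.95 to -1.63.

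Macrophages are rich in cathepsins B, D and S. Of 20 markers fixed for this cell type, 16 were on the array and 13 were among the tested probes. At 24 h of strain all 13 had a negative value, against 47.0% of all probes, at a median of -0.31 against 0.01 for all probes. Of the 13, 2 were called lower under strain, against 1.37% of all probes. They were Adgre1, which encodes the macrophage surface receptor F4/80, at -0.87 ± 0.13 (adjusted p = 0.00619), and the leucocyte tetraspanin gene Cd53, at -0.63 ± 0.13 (adjusted p = 0.0290). The summed intensity of the 13 was 1652 to 2261 in strained and 2616 to 3493 in unstrained fascicles at 24 h, with no overlap. The bright genes Fcer1g (an Fc receptor chain) and Cd14 (a receptor for bacterial lipopolysaccharide) made up 74.5% of the gap between the group means, and neither passed (adjusted p = 0.125 and 0.616). Without these, which were set aside after their values were seen, the sum of the other 11 was 663 to 774 in strained and 888 to 1106 in unstrained fascicles at 24 h. The lower values were not confined to 24 h. At 1 h of strain 11 of the 13 had a negative value, against 50.4% of all probes, at a median of -0.42. At 1 h the sum of the 13 was 2228 to 3803 in strained and 3243 to 5624 in unstrained fascicles, and its lowest value there was again strained replicate 3. No marker was at 0, since background remains in all values, and Marco, Ptprc and Spi1 were too dim to be tested. Among those tested, C1qc, Mrc1 and Cd163 averaged 48.4 to 58.5 in the groups at 24 h, near the array median, so their sign says little. The part of macrophages in the cathepsin results was not tested.

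**Figure D3:**
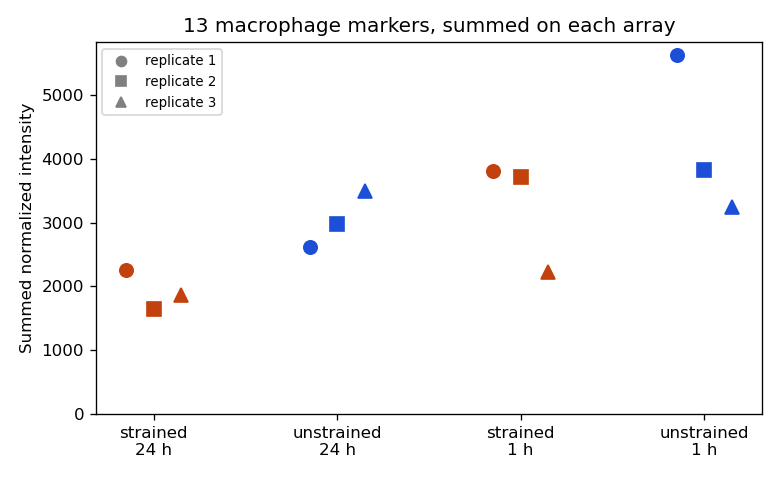
Summed normalized intensity (y axis) of the 13 macrophage markers on each array, by group (x axis); symbols give the replicate number. Fcer1g and Cd14 make up 74.5% of the gap between the 24 h means. At 24 h the strained arrays, at 1652 to 2261, lie below the unstrained ones, at 2616 to 3493, and at 1 h strained replicate 3 is lowest, at 2228.

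The macrophage markers did not move as one over time. In unstrained fascicles 5 of the 13 fell from 1 h to 24 h, against 7.42% of all probes. Another 3 rose, against 9.83% of all probes. The chains of complement C1q were among those that fell, with C1qb at -3.18 ± 0.27 and C1qc at -2.59 ± 0.21, while Cd53 rose by 0.81 ± 0.13 and Adgre1 by 0.77 ± 0.13. Ctss and Ctsk moved in the direction of the first group and Ctsd in that of the second. The falling direction was not particular to macrophage genes. All 8 tested tenocyte markers also had a negative value over time in unstrained fascicles, and 4 of them were called lower. Osteoclast markers gave little signal: of 10 fixed, 5 were on the array and 2 were tested, and the receptor genes Oscar and Tnfrsf11a had group means of 41.3 to 45.2 and 50.9 to 56.6, below the array median. Of the 2 tested, Mmp9, a gelatinase that macrophages also make, was lower under strain at 24 h by 0.65 ± 0.15 (limma adjusted p = 0.0446). Atp6v0d2 stood at 0.04.

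Other enzymes of the same compartment were measured less fully. Of 16 further cathepsins and related proteinases, 9 were on the array and 3 were bright enough to test. Lgmn encodes the asparaginyl endopeptidase legumain, which matures several cathepsins. At 24 h its probe averaged 360 ± 49.6 in strained and 545 ± 43.1 in unstrained fascicles (SD, n = 3 each). Its log2 fold change was -0.60 ± 0.13 (adjusted p = 0.0360). Ctsc, which activates granule proteinases, and the aminopeptidase gene Ctsh stood at -0.20 and -0.45 and did not pass. Like Ctsd, Lgmn rose over time in unstrained fascicles, by 0.84 ± 0.13 (limma adjusted p = 0.00124). At 1 h its means were 281 in strained and 305 in unstrained fascicles, so the strained mean was not lower at 24 h than at 1 h. Ctsh fell over time in unstrained fascicles by 1.09 ± 0.24 (adjusted p = 0.00832) and in strained ones by 1.43 ± 0.24 (adjusted p = 0.00129), as Ctsk and Ctss did.

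Cystatins inhibit the cysteine cathepsins. Of 11 listed, 10 were on the array and 4 were tested. None was called by limma at either time of strain, against 0% of all probes at 1 h and 2.34% at 24 h. At 24 h 1 of the 4 had an unadjusted p under 0.05, against 1484 of all 11258 probes. That one was Cstb, the intracellular inhibitor stefin B, with 1489 ± 376 in strained and 2379.7 ± 226 in unstrained fascicles at 24 h (SD, n = 3 each) and a log2 fold change of -0.71 ± 0.19 (adjusted p = 0.0864). Cst3, the secreted inhibitor cystatin C, stood at -0.20 ± 0.21 (adjusted p = 0.839).

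Other lysosomal genes were read at 24 h of strain against the same 1.37% of all probes called lower. Of 22 tested hydrolases 3 were called lower under strain and none higher, at a median of -0.20. They were the serine carboxypeptidase gene Scpep1 (-1.02 ± 0.13), the acid ceramidase gene Asah1 (-0.66 ± 0.10) and the fucosidase gene Fuca1 (-0.68 ± 0.13). Of 17 tested genes of lysosomal membrane and cholesterol export 3 were called lower under strain and none higher, at a median of -0.21. These were Npc2, a soluble carrier of cholesterol (-0.95 ± 0.14), the abundant membrane glycoprotein gene Lamp2 (-0.55 ± 0.10) and the sialomucin gene Cd164 (-0.42 ± 0.08). Adjusted p ranged from 0.00313 for Scpep1 to 0.0238 for Cd164.

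The V-ATPase pumps protons into the lysosome and so sets the pH that the cathepsins need. All 15 tested subunits and accessory proteins had a negative value at 24 h of strain, against 47.0% of all probes, at a median of -0.32. Only 1 of them, the accessory protein gene Atp6ap2, passed the test (-0.70 ± 0.13, limma adjusted p = 0.0192), against 1.37% of all probes called lower. No pump subunit itself passed in limma, and 8 of the 15 genes had an unadjusted p under 0.05, against 1484 of all 11258 probes. Genes that sort enzymes to the lysosome had no call by limma among 15 tested, against 2.34% of all probes. Their median was 0.02, with 3 at an unadjusted p under 0.05. The 2 of smallest p were Ap3s1, a subunit of an adaptor of lysosomal transport, at -0.31, and M6pr, the cation-dependent mannose 6-phosphate receptor, at 0.24. The lysosomal transcription factor genes Tfeb and Tfec stood at -0.10 and -0.01 and were not called. Their group means of 55.8 to 60.3 and 55.4 to 62.1 lay near the array median, so a change could hardly show.

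MHC class II genes, whose products cathepsin S prepares for antigen loading, did not pass at 24 h of strain. Among 8 tested, limma called none, against 2.34% of all probes, and the median was -0.04. Of the 8, 0 had an unadjusted p under 0.05, against 1484 of all 11258 probes. The 2 of smallest p were RT1-DOa at -0.10 and RT1-Db1 at -0.17. The probes of Cd74, RT1-Da, RT1-Ba and RT1-Db1 averaged 50.5 to 59.6 in the groups at 24 h, near the array median, so a fall could hardly show. Ifi30 was brighter, at 153 in strained and 158 in unstrained fascicles. At 1 h limma called none of the genes in any of these lists, and 0% of all probes. All 8 class II genes had a negative value at 1 h of strain, against 50.4% of all probes, at a median of -0.24. Among markers of other cells, limma called none of 8 tenocyte, 4 endothelial and 4 skeletal muscle genes at 24 h of strain, with 1, 0 and 1 at an unadjusted p under 0.05. At a share of 2.34% of all probes called, lists this small would hold few calls, so these counts say little. The endothelial probes averaged 55.4 to 61.6 in the groups at 24 h, near the array median.

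**Figure D4:**
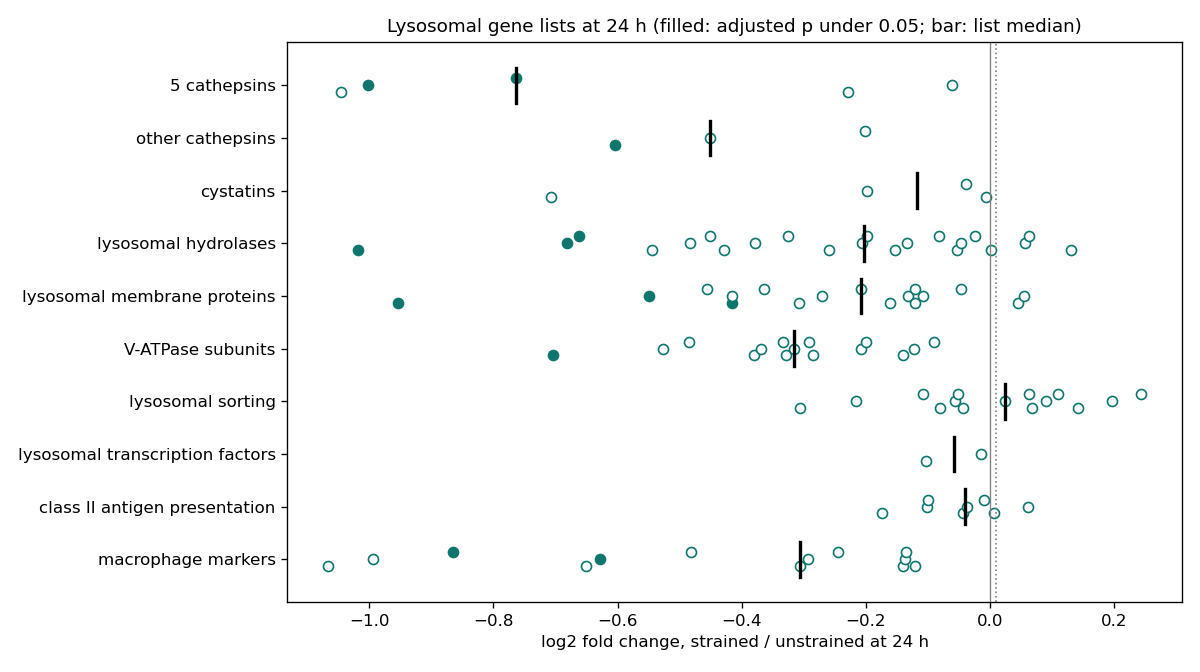
Log2 fold change for strain at 24 h (x axis) of every tested gene in 10 gene lists (rows); filled points have an adjusted p under 0.05, bars are list medians and the dotted line is the median of all probes, 0.01. The 15 V-ATPase genes all lie below 0, and sorting genes lie on both sides of it.

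The genes most like each cathepsin across all 12 arrays were found by the root mean square difference between log2 intensities, each centred on its own mean, among the other 7779 named genes tested. Nearest to Ctsb were the guanine deaminase gene Gda (0.15), the metallothionein gene Mt3 (0.17) and the inflammatory caspase gene Casp1 (0.17). These 3 were lower under strain at 24 h, by 0.89, 0.74 and 0.75. Genes in this search were chosen by their values on these same arrays, so a change shared with the cathepsin follows from the choice. Nearest to Ctsd were Adgre1 (0.19), the adenylate kinase gene Ak3 (0.19) and the kinase gene Mknk1 (0.19), and all 3 also rose over time in unstrained fascicles, by 0.77, 0.52 and 0.53.

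Ctsk was followed most closely by the early response gene Ier2 (0.28), the semaphorin gene Sema3b (0.29) and the endoplasmic reticulum stress gene Herpud1 (0.30). Ctss was followed by the transferrin gene Tf (0.34), the macrophage gene Aif1 (0.35) and the complement regulator gene Cd59b (0.38). These 6, chosen by that likeness, all fell over time in unstrained fascicles, by 1.53 for Aif1 up to 2.11 for Cd59b. For Ctsl the nearest were the ion channel gene Trpv4 (0.12), the adaptor gene Skap2 (0.13) and the sugar transporter gene Slc35d2 (0.14), none of them called in either strain comparison. Among the cathepsins themselves, Ctsk ranked 27 of 7779 in likeness to Ctss, and Ctss 57 in likeness to Ctsk (0.53). Ctsd ranked 89 in likeness to Ctsb, and Ctsb 330 in likeness to Ctsd (0.31). A small difference is easier to reach for genes that vary little, as Ctsl does.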

How the data were processed

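The authors deposited a table of 22517 probes on 12 arrays whose linear intensity values were already normalized between arrays, as the values show: ranked intensities match between arrays to within 0.0928%. The sources used here name neither the software nor any background correction. A second deposited table names its 24 columns of values only by number, so it was not used, and no detection p was available. Probes were kept in the upper 50% by mean log2 intensity over all arrays, 11258 in all, the dimmest at 56.2. Gene symbols came from GEO's platform annotation (13787 probes with 1 symbol, 0 with several, 8730 unnamed here), and 0 changed against the GRCr8 gene table.

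The two-sided tests were those of limma 3.58.1, run in R 4.3.3 with lmFit, contrasts.fit and eBayes. The model had 1 coefficient for each group over 12 arrays, 8 residual and 4.08 prior degrees of freedom, for 5 contrasts. Errors are standard errors unless given as SD. Standard errors of fold changes had a median of 0.12 on the log2 scale, so the number of arrays limits precision. The script was tested on simulated data. At 1 h, same-numbered strained and unstrained arrays deviated together (correlations of 0.604, 0.537 and 0.521), against -0.372 to -0.126 for different numbers. At 24 h the correlations were 0.0387, 0.309 and 0.388, against -0.391 to 0.0772 for different numbers. The main fit took no pairs at either time, so its p-values ignore any pairing. A replicate block within each time was an alternative setting. The cathepsins and the other gene lists were chosen with earlier results of these data known. Named from each list were genes called in a strain comparison, at most 4, or else the 2 of smallest p at 24 h of strain, with other values named after they were seen, and for each cathepsin the 3 genes of most similar pattern. Alternatives changed the filter, the arrays fitted, the replicate block, the variance model, array weights, background and normalization, and left out each array. Figures used matplotlib 3.10.9 in Python 3.11.15.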

Additional observations from a re-analysis of the deposited data

How the results depend on the processing

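Over 9 other settings and 12 fits that each left out an array, the falls of Ctsk and Ctss over time kept their call in every fit that gave one. For strain at 24 h, Ctsb ranged from -1.10 to -0.88 and Ctsd from -0.86 to -0.63 when an array was left out. Without a filter on dim probes Ctsd stood at -0.76 (adjusted p = 0.0523), leaving 1 cathepsin called, and with a background of 30 subtracted at -0.85 (0.0663). Ctss passed at -1.05 with the stricter filter, only the groups compared, the replicate block over all arrays, the replicate block within each time, or a variance trend (adjusted p = 0.0118 to 0.0397), at -1.004 with array weights and at -1.31 with background subtracted. It ranged from -1.25 to -0.89 without an array, when 0 to 3 cathepsins were called. Ctsd over time in unstrained fascicles lost its call with no filter (0.58) and with background subtracted (0.64), and ranged from 0.45 to 0.69 without an array. Ctsb over time in strained fascicles passed at -0.48 with the stricter filter or the block over all arrays and at -0.54 with array weights, and ranged from -0.68 to -0.34. Values near 0 changed sign without an array: Ctsb (-0.33 to 0.0053) and Ctsk (-0.11 to 0.049) for strain at 1 h, Ctsk for strain at 24 h (-0.55 to 0.28) and for the difference (-0.54 to 0.28), Ctsl over time in unstrained fascicles (-0.14 to 0.076) and Ctsd over time in strained ones (-0.11 to 0.20, and -0.021 with array weights). The causes were not tested.

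Counts over all probes moved more. The 24 h count of 263 was 882 with the replicate block within each time, 558 with array weights and 69 to 307 without an array. It was 69 and 95 without strained replicates 2 and 3, and 109, 118 and 107 without unstrained replicates 1, 2 and 3 at 24 h. The 1 h count of 0 was 23 with the block within each time, 1 with a variance trend and 0 to 2 without an array. For the difference, 9 became 30 and 184 with the blocks, 19 with a variance trend and 7 to 16 without an array. Over time, 1942 in unstrained fascicles became 1227 to 2117. Apart from Ctss at 24 h and Ctsb over time in strained fascicles, no block changed the call of a cathepsin. Each cathepsin has 1 probe, so no second probe could be compared.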

Other observations

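Lysosomal genes also changed between 1 h and 24 h without strain, in both directions. Of the 15 V-ATPase genes tested, 6 rose in unstrained fascicles and none fell, at a median of 0.36. In strained fascicles 1 rose and 1 fell, at a median of 0.16. The rise in unstrained fascicles and the lower values under strain at 24 h share the 3 unstrained arrays at 24 h. Those that rose in unstrained fascicles included Tcirg1, a membrane subunit of the pump (0.55 ± 0.14), and Atp6v1a, its catalytic subunit (0.45 ± 0.11). Of 22 hydrolases, 6 fell and 2 rose in unstrained fascicles. Man2b1, a lysosomal mannosidase, fell by 1.02 ± 0.17 and Psap, the precursor of the saposins, by 0.72 ± 0.16, while the acid phosphatase gene Acp2 rose by 0.89 ± 0.18. Lamp2 fell over time by 0.56 ± 0.10 in unstrained and by 1.10 ± 0.10 in strained fascicles. Among the cystatins, Cst3 fell over time in unstrained fascicles by 1.30 ± 0.21 (limma adjusted p = 0.00144). Of all probes, 17.2% were called over time in unstrained fascicles, 9.83% higher and 7.42% lower. In strained fascicles 20.7% of all probes were called, with 8.52% called lower. Tenocyte markers were lower at 24 h as well, with 4 of 8 tested past the test in unstrained and 7 of 8 in strained fascicles, and none higher.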
